A study of Drosophila melanogaster with 16 samples.

Results

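In the RNA-seq data of S2 cells, 99 of 15050 listed genes had a count of 0 in both control libraries and a count of at least 3 in both libraries of lamin Dm0 knock-down (Lam-KD) cells. These silent genes, detected upon Lam-KD, were chosen by those RNA counts, so the difference between the conditions that defines them is a description and is not tested here. The rule named 8 identifiers to be left out, and 0 of these would have met it.

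S2 is a macrophage-like *Drosophila* line of embryonic origin. Both conditions received double-stranded RNA, for 5 days according to the sample labels. The study's methods state a shorter treatment. The RNA was directed against bacterial *lacZ* in control cells and against lamin Dm0 in Lam-KD cells. Each condition is represented by 2 libraries of poly(A)+ RNA, described as biological replicates of a single line. No other allele or agent distinguishes the groups. The tables list genes by FlyBase identifier, and RefSeq gave a symbol for 137 of these 15050 identifiers. The lamin Dm0 gene and the marker genes of hemocytes and of other cell types are not among these 137, so neither the depletion of the target nor the cell type was checked against the labels.

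The nuclear lamina is a meshwork of lamins beneath the inner nuclear membrane. Lamin Dm0 is the B-type lamin of *Drosophila* and is present in nearly all of its cells. Lamina-associated domains (LADs) are long stretches of chromatin that contact this meshwork, and they are typically gene-poor, weakly acetylated at histones and scarcely transcribed. Genes in such domains are mostly those of other tissues or stages. Which of the 99 genes lie in LADs was not analysed here, because gene positions on the genome version of the study were not used.

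A count in these tables is an estimate by StringTie and need not equal a read. The libraries sum to between 14722940 and 16601579 counts over the listed genes. In each library fewer genes had a count of 1 (112 to 137) than a count of 2 (304 to 374) or 3 (326 to 416). A count of 3 is thus the most frequent value above 0 and lies near the limit of detection, and the minimum in the rule sits at this value. The libraries also sum to more counts than the reads that the study's methods give for each, so a read may be worth more than 1 count and the scale was not settled. If a count were a read, a count of 0 would allow up to 3 counts, which is 0.181 to 0.204 counts per 1000000 (CPM) in these libraries and covers counting error only. If a read is worth more than 1 count, this limit is higher.

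More genes were at 0 in the control libraries than in the Lam-KD libraries. The numbers were 5322 and 5321 in control cells and 4979 and 5036 in Lam-KD cells, so that the conditions do not overlap. Control replicate 1 is the deepest library and control replicate 2 the shallowest, and the part of depth in these numbers was not tested. Of the 4812 genes at 0 in both control libraries, 797 were above 0 in at least 1 Lam-KD library and 159 in both. Of the 4421 genes at 0 in both Lam-KD libraries, 406 were above 0 in at least 1 control library and 67 in both.

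The 99 genes make up 0.658% of all listed genes and 2.06% of the genes at 0 in both control libraries. Their mirror set, with a count of 0 in both Lam-KD libraries and at least 3 in both control libraries, holds 27 genes. That is 0.179% of all listed genes and 0.611% of the genes at 0 in both Lam-KD libraries. The same rule applied across the conditions, to genes at 0 in 1 control and 1 Lam-KD library and at 3 or more in the other libraries, found between 39 and 45 genes in the 4 possible arrangements. The set of 99 is therefore larger than each of these sets and the mirror set is smaller than each. With 2 libraries a condition these sizes were not tested.

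**Figure D1:**
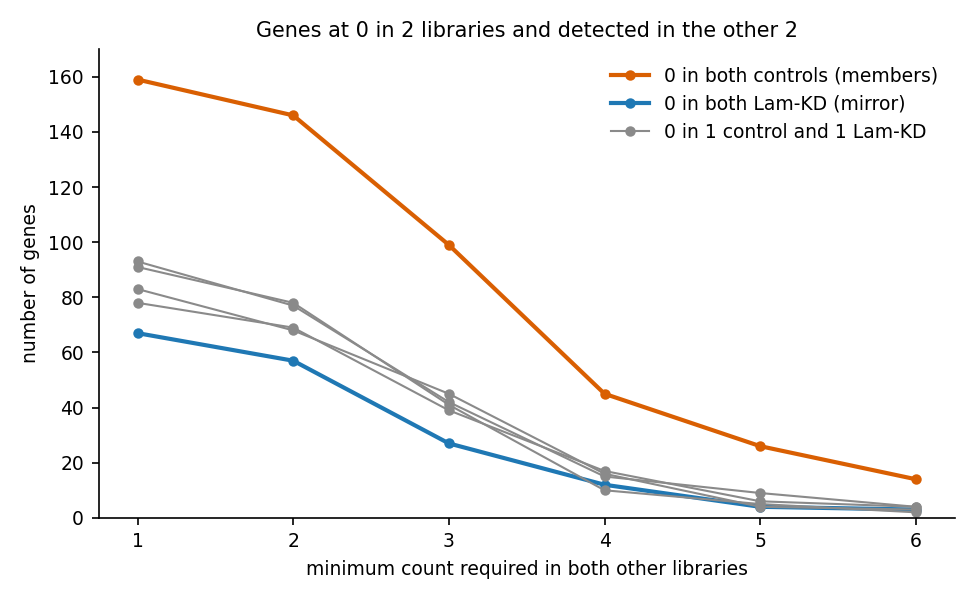
Number of genes at 0 in 2 libraries, against the minimum count required in both other libraries. Orange marks genes at 0 in both controls (99 at a minimum of 3), blue the mirror set (27) and grey the 4 arrangements that mix the conditions (39 to 45); the orange line is the highest at each minimum shown.

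The set detected in Lam-KD cells was also the largest at each minimum from 1 to 15 counts that was tried. The mirror set was smaller than each mixed arrangement at a minimum of 1, 2 or 3 counts but not at higher ones. At a minimum of 1 count, 159 genes were detected only in Lam-KD cells and 67 only in control cells, against 78 to 93 in the mixed arrangements. At a minimum of 5 counts the numbers were 26, 4 and 4 to 9. At a minimum of 10 counts 6 genes were left in the set and 1 in the mirror set, with 0 to 3 in the mixed arrangements. At a minimum of 20 counts 1 gene was left in the set and 1 in the mirror set, with 0 to 2 in the mixed arrangements. In single pairs of libraries, between 466 and 476 genes were at 0 in a control library and at 3 or more in a Lam-KD library, over the 4 pairs, whereas 216 to 267 showed the opposite. Between replicates of a condition the numbers were 302 and 309 in control cells and 335 and 369 in Lam-KD cells. Genes thus appeared at 3 or more counts from 0 between replicates as well, and at least 302 did so in each direction within each condition.

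**Figure D2:**
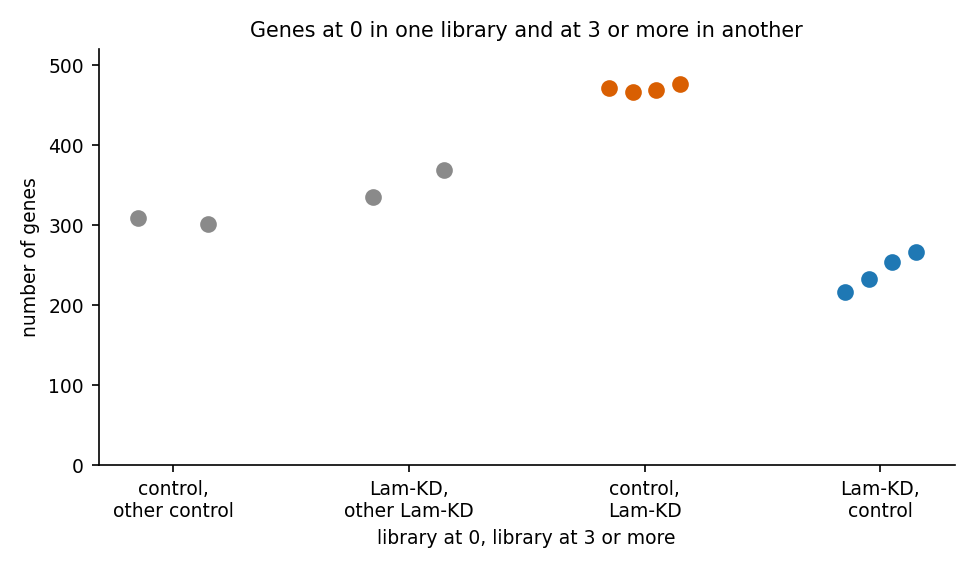
Number of genes at 0 in one library and at 3 or more in another, for all 12 ordered pairs of libraries. Each point is 1 pair; the 4 pairs from control to Lam-KD (orange) lie between 466 and 476, the 4 opposite pairs (blue) between 216 and 267, and the 4 pairs of replicates (grey) between 302 and 369.

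One gene stands apart from the others in level. The counts of FBgn0031455 were 0 and 0 in control cells, and they were 198 and 210 in Lam-KD cells. Both Lam-KD values are far above the limit that a count of 0 allows, and they differ little from each other. In CPM the level was 12.3 and 12.8, at least 131-fold higher than the floor of 3 counts when both control libraries are summed. This bound takes a count as a read, and it is lower if a read is worth more than 1 count. This gene alone took 29.0% and 28.5% of the counts of all 99 genes in the Lam-KD libraries. The sum over the other members was 485 and 526 counts, or 30.1 and 32.1 CPM.

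Below it, 5 further genes reached at least 10 counts in both Lam-KD libraries, all from 0 and 0 in control cells. FBgn0051865 had 18 and 21 counts, and FBgn0050345 had 15 and 16. In each of these 5 genes both Lam-KD values lay within a few counts of each other. Genes detected in 2 libraries at such levels were also found across the conditions. The largest lower count was 66, 30, 10 and 6 in the 4 mixed arrangements. FBgn0038837 had 12 and 13 counts. FBgn0000303 and FBgn0013348 each had 11 and 13 counts. What these genes encode is not given in the tables used here.

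The next 9 members by their lower Lam-KD count lay at 5 or more counts in both libraries, again with 0 and 0 in control cells. FBgn0004595 had 7 and 9 counts and FBgn0036235 had 7 and 8. FBgn0014396, FBgn0031866 and FBgn0259244 each had 8 and 6 counts, and FBgn0034218 and FBgn0034788 had 7 and 6 and 6 and 7. FBgn0004228 had 6 counts in each Lam-KD library. The last of the 9, FBgn0259150, had 5 and 19 counts, so that its Lam-KD libraries differed 3.8-fold. The remaining 84 members had a lower count of 3 to 5.

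One member carries a name. FBgn0051105 is *ppk22*, a protein-coding gene on arm 3R by RefSeq. It belongs to the pickpocket family of degenerin/epithelial sodium channels, which in flies is best known from sensory neurons and tracheae. Its counts were 0 and 0 in control cells and 5 and 6 in Lam-KD cells, or 0.31 and 0.37 CPM. These levels lie near the limit that a count of 0 allows.

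The members mostly sit at the edge of the rule. The lower of the 2 Lam-KD counts was 3 in 54 genes, 4 in 19 genes, 5 to 9 in 20 genes and at least 10 in 6 genes. The median count was 4 in each Lam-KD library. In 19 genes both counts were exactly 3. Just inside the rule lie FBgn0002533 with 3 and 3 counts and FBgn0002569 with 3 and 5 counts. Just outside it were 47 genes at 0 in both control libraries with a lower Lam-KD count of 2 and a higher one of 2 to 6, such as FBgn0014019 with 2 and 3 counts and FBgn0014865 with 2 and 2 counts. The values on both sides of the threshold thus run on without a gap.

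**Figure D3:**
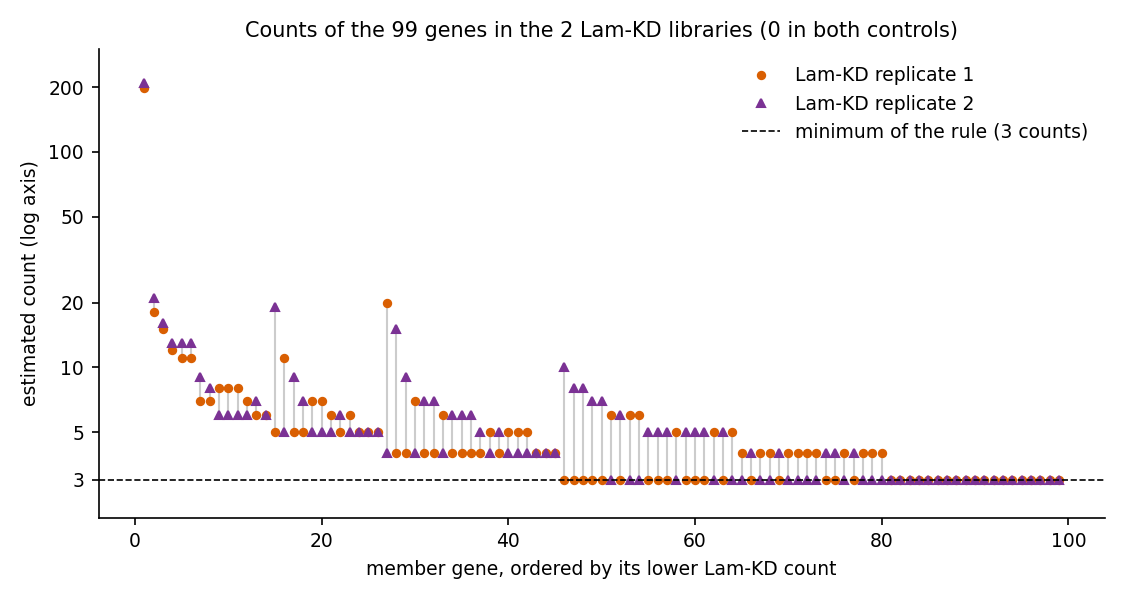
Estimated counts of the 99 genes in Lam-KD replicate 1 (orange circles) and replicate 2 (purple triangles), on a log axis and ordered by the lower of the 2; all are at 0 in both control libraries. FBgn0031455 lies at 198 and 210, whereas 54 genes touch the dashed line at 3 counts.

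Between the Lam-KD replicates the members agreed in part. Counts were equal in 26 genes, higher in replicate 1 in 33 genes and higher in replicate 2 in 40 genes. In 14 genes the replicates differed at least 2-fold. The widest was FBgn0026778 with 20 and 4 counts, chosen for mention after its values were seen, as was FBgn0015519 with 4 and 15 counts. Over the 99 genes, which share the same libraries and depth, Pearson's r of the counts was 0.988 and Spearman's rho 0.407. Without FBgn0031455, r was 0.532 over 98 genes, so the high r rests on this gene. The rule's minimum shortens the range of values, and the rho is a description.

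The mirror genes had levels of the same order. Their median count was 4 in each control library, and 15 of 27 had a lower count of 3. FBgn0085345 was the exception with 43 and 582 counts in control replicates 1 and 2 and 0 and 0 in Lam-KD cells. Its control libraries differed 13.5-fold, in contrast to the close values of FBgn0031455. Of the next ones, FBgn0000636 had 6 and 9 counts, FBgn0086519 had 6 and 8, FBgn0037664 had 5 and 7, and FBgn0031343 had 12 and 4, all with 0 and 0 in Lam-KD cells. Only FBgn0085345 reached 10 counts in both of its libraries, against 6 of the 99 genes.

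Genes were also chosen in 1 pair of libraries and read in the other pair. The rule for the 99 genes uses all 4 libraries, so the second pair is not independent of that rule. Of 466 to 476 genes at 0 in the control and at 3 or more in the Lam-KD library of the first pair, 161 to 202 were higher in the Lam-KD library of the second pair and 89 to 126 were higher in its control library. A further 178 or 179 genes were at 0 in both. Lam-KD was the higher side in each of the 4 arrangements, whereas 19.0% to 27.0% of the genes went the other way. The 99 genes are those that met the rule again in the second pair, 20.8% to 21.2% of the genes chosen in the first, while 39 to 45 genes met the opposite rule. By the rule itself, the 99 genes are higher in the Lam-KD library in each arrangement. The larger number on the Lam-KD side rests in part on them and is a description. Without the genes that met either rule in the second pair, 62 to 103 were higher in its Lam-KD library and 48 to 81 in its control library, and the control library was then the higher side in 2 of the 4 arrangements.

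Genes chosen the other way, at 0 in the Lam-KD and at 3 or more in the control library, numbered 216 to 267. In the second pair 60 to 81 of them were higher in the control library and 65 to 101 were higher in the Lam-KD library. The control library was the higher side in 1 of the 4 arrangements, by 66 genes against 65. Only 27 of them, or 10.1% to 12.5%, met the mirror rule again. CPM were compared here, which scale values above 0 for depth but leave a count of 0 at 0. Whether a gene is above 0 can depend on depth, and the part of depth was not tested. The arrangements share libraries and are not independent of each other, and no test across genes was made.

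**Figure D4:**
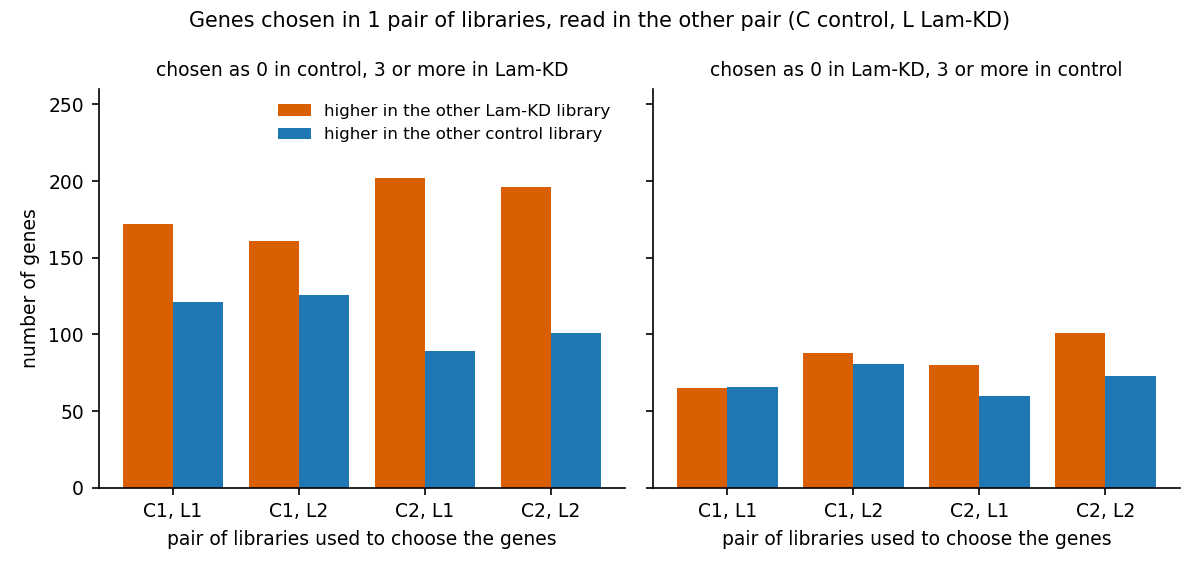
Genes chosen in 1 pair of libraries (x axis, C for control and L for Lam-KD with the replicate number) and read in the other pair, as the number of genes higher in its Lam-KD (orange) or control (blue) library by CPM. On the left, orange exceeds blue in each arrangement (161 to 202 against 89 to 126), with the 99 members counted in orange by the rule that defines them. On the right, the bars are closer (65 to 101 against 60 to 81).

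The 10058 genes above 0 in at least 2 libraries entered the test across all genes, for which edgeR's quasi-likelihood method and TMM factors were used. All 99 members and all 27 mirror genes are among these by construction. At a Benjamini-Hochberg adjusted p under 0.05, edgeR called 0 of the 10058 genes higher in Lam-KD cells, which is 0%, and 0 lower. Thus 0 of the 99 members were called. Of all genes tested, 5.24% had an unadjusted p under 0.05 and were higher in Lam-KD cells and 4.13% were lower. The 99 members and the 27 mirror genes all had an unadjusted p under 0.05 in this fit. The rule chose them on the same contrast, so nothing is read from it. The smallest adjusted p of a member was 0.0805 in edgeR's quasi-likelihood test, for FBgn0031455. Other fits differed, since DESeq2 called 20 genes higher and 16 lower, with FBgn0031455 and FBgn0051865 among the higher, and edgeR's exact test called 51 higher and 26 lower, with 13 members among the higher and 3 mirror genes among the lower. With edgeR's own expression filter, which 6 of the 99 members pass, the quasi-likelihood test called 3 genes higher, and FBgn0031455 was 1 of them. These members passed the filter through the Lam-KD libraries alone. All calls of members in these fits rest on the contrast and counts that chose them and are descriptions, with nothing read from them.

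Genes that were already detected in all 4 libraries and belong to neither set were read for comparison. Among 8962 such genes, 27.5% were higher in Lam-KD cells in all 4 pairs of libraries and 16.9% were lower in all 4 pairs, by CPM. The median log2 ratio of summed CPM over all of these genes was 0.04. These CPM rest on library sums without the TMM factors of the test. How far a small offset between the conditions shifts the shares was not tested. For the 455 genes with a mean count over 5 and up to 10 the shares were 26.6% and 10.1%, and for the 777 genes over 10 and up to 30 they were 29.1% and 11.7%. For the 3233 genes above 1000 they were 29.7% and 19.7%. The median log2 ratio of summed CPM was 0.13 and 0.16 in the former bands and 0.03 in the last. In the 347 genes with a mean of at most 5 counts, closest in level to the 99 genes, it was -0.02, with 21.0% higher and 11.8% lower. The 4 pairs come from the same 4 libraries and are not independent, and the bands were not tested against each other.

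**Figure D5:**
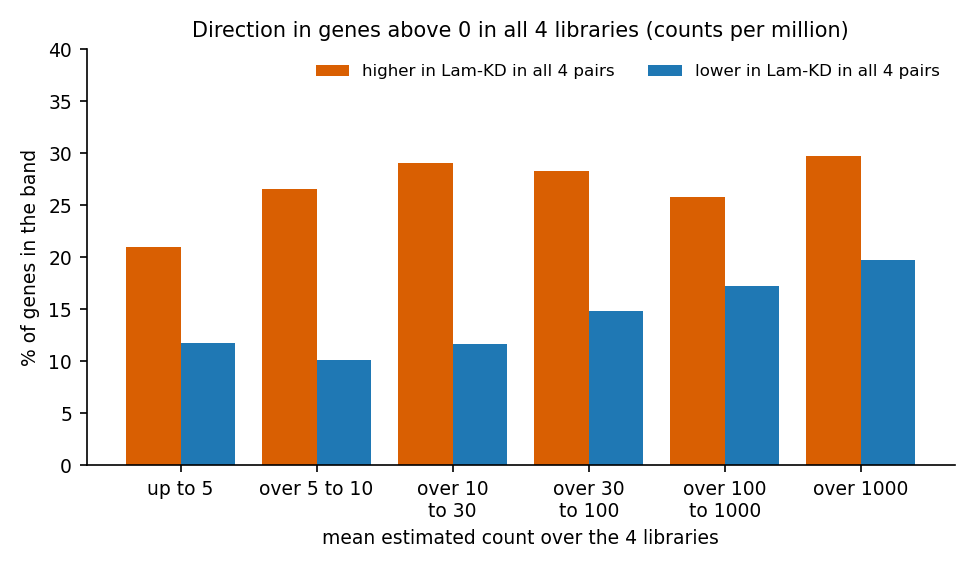
Share of genes higher (orange) or lower (blue) in Lam-KD than in control cells in all 4 pairs of libraries, by CPM, in bands of the mean count over the 4 libraries; members and mirror genes are left out. Orange exceeds blue in each band, from 21.0% against 11.8% in the weakest to 29.7% against 19.7% in the strongest.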

How the data were processed

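Poly(A)+ RNA-seq libraries from S2 cells, 2 per condition, were analysed. The authors mapped reads to dm3 with HISAT2 2.1.0, removed reads of low mapping quality with SAMtools, quantified genes with StringTie and deposited an estimated count for each gene, given as a whole number without scaling to depth. The 99 rows without a FlyBase gene identifier hold 0.0318% to 0.0329% of the counts and were left out. Members and lists were chosen with earlier results of these data known.

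Sets were formed on the counts with pandas 2.3.3 in Python 3.11.15. CPM used the sum over the 15050 genes. Lam-KD was compared with control by the quasi-likelihood test of edgeR 4.0.16 in R 4.3.3 (TMM, genes above 0 in at least 2 libraries, adjusted p under 0.05 by Benjamini-Hochberg over all genes), with DESeq2 1.42.0, edgeR's exact test, other filters, RLE size factors, a replicate block and left-out replicates as alternatives. The rule that forms the sets was checked on a few made-up rows. Only the edgeR fit was run on simulated counts. The changed genes there had higher mean counts than nearly all members, so that run does not bear on weakly counted genes. The labels link same-numbered replicates by number only. Their deviations had r = -0.029 over 10058 genes, many of them weakly counted, which cannot exclude a shared batch. Named genes were the 15 members with the largest lower Lam-KD count, the first 2 identifiers on each side of the threshold, and the 5 mirror genes with the largest lower control count. Symbols came from RefSeq, for the Release 6 assembly, whose coordinates were not used. H3 pan-acetylation and Hi-C at the members, and the genes beside them along the arms, were not analysed here. The ChIP-seq, input and Hi-C files were not used. The labels call the replicates biological without saying that they are separate cultures, so p-values measure only the spread between these libraries, which may be technical.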

Additional observations from a re-analysis of the deposited data

Results flagged for a closer look

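Among the 99 rows outside the gene comparison, only FBtr0113460, a row listed under a transcript identifier, met the count limits set for the members. It had 0 and 0 counts in control and 5 and 5 counts in Lam-KD cells. The rule itself covers gene rows only, of which 0.658% met it. None of the rows outside the gene comparison met the limits of the mirror set.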

How the results depend on the processing

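The set sizes move with the minimum count by construction. At a minimum of 1 count there were 159 members, 67 mirror genes and at most 93 genes in a mixed arrangement, and at a minimum of 2 there were 146, 57 and at most 78. At 5 the numbers were 26, 4 and at most 9, and at 10 they were 6, 1 and at most 3. Scaling all libraries to the shallowest before applying the minimum gave 45, 14 and at most 27, since a count of 3 then falls below the minimum in the deeper libraries. Allowing 1 count in place of 0 gave 103, 29 and at most 47. Leaving out 1 replicate in turn relaxes the rule and gave 204 to 290 members and 70 to 133 mirror genes. The numbers were 212 and 133 when control replicate 1 was left out, 204 and 119 for control replicate 2, 289 and 103 for Lam-KD replicate 1, and 290 and 70 for Lam-KD replicate 2. Members outnumbered the mirror genes under each of these settings, and the mixed arrangements wherever these could be formed.

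In the test across all genes, 0 genes were called in the quasi-likelihood test of edgeR, also with RLE size factors. Without a filter beyond 1 count it called 3 higher, and FBgn0031455 was the 1 member among them, as with edgeR's own filter, which also called 3 higher. DESeq2 called 20 higher and 16 lower, with 2 members, and edgeR's exact test 51 higher and 26 lower, with 13 members. The members were chosen on this contrast, so their calls are descriptions. The fit with a replicate block called 20 higher and 14 lower, with FBgn0031455 as the 1 member and FBgn0085345 as the 1 mirror gene. The labels link these replicates by number only, and whether they share a batch is not known, so the number of calls depends on this choice. Left-out replicates gave 0 to 20 higher, 0 to 9 lower and 0 members. Leaving out Lam-KD replicate 1 gave 20 higher and 9 lower, and leaving out Lam-KD replicate 2 gave 13 higher and 2 lower, in fits that test 0 members because these are then above 0 in only 1 library. The causes of the other shifts were not tested. The planned comparisons of H3 pan-acetylation at the members and of genes next to them were not run, because gene positions on dm3 were not used here. Depth limits the statements on single members, since 93 of 99 had fewer than 10 counts in at least 1 Lam-KD library.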

Other observations

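In 5 cases a member and a mirror gene have consecutive FlyBase numbers, a pattern noticed after the values were seen. FBgn0032492 had 0 and 0 counts in control and 3 and 3 in Lam-KD cells, while FBgn0032491 had 4 and 4 in control and 0 and 0 in Lam-KD cells. FBgn0000635 had 6 and 4 counts in Lam-KD cells, and FBgn0000636 had 6 and 9 in control cells. FBgn0029532 had 3 and 4 against 3 and 3 for FBgn0029531, and FBgn0035103 had 3 and 4 against 4 and 4 for FBgn0035104, in the same order. *ppk22* (FBgn0051105) had 5 and 6 in Lam-KD cells, and FBgn0051104 had 5 and 4 in control cells. Of the 135 listed genes whose number is 1 away from a member's, 5 were mirror genes and 4 were themselves members. Over all listed genes the shares were 0.179% for mirror genes and 0.658% for members. The 4 members formed 2 pairs (FBgn0002533 with FBgn0002534, and FBgn0038208 with FBgn0038209). Between the mixed arrangements that are opposite to each other, 0 and 1 such cases occurred. Whether genes with consecutive numbers overlap or lie side by side, and whether reads could pass from one to the other in the estimate, was not tested. Without these genes, an alternative chosen after seeing the data, 94 members and 22 mirror genes were left. Of the 135 genes, 29.6% were at 0 in all 4 libraries, against 26.7% of all genes. Above 0 in all 4 libraries were 59 of the 135, against 8962 of all 15050 genes.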
